A study of Mus musculus with 8 samples.

Results

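The collagen genes described here are the rows of the deposited expression table whose symbol is Col, a number, a and a number, without Col17a1 and Col7a1, the collagens of the hemidesmosome and the anchoring fibril. The rule used symbols and no measured value, and it found 34 of the 15995 genes listed. Of these, 18 reached 1 FPKM (fragments per kilobase, a level scaled to transcript length and library size) in at least 4 of 8 libraries and were tested. The other 16 stayed under that filter and are given by their values. A further 9 collagen genes of the class lists used here are not analysed here.

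RNA was sequenced from epidermis peeled off the skin of newborn C57BL/6J mice, 4 samples of genotype ZFP750-/- (knockout) and 4 wild type. The labels name no allele, promoter or Cre for the knockout, and no sex or litter. Skin had lain in trypsin-EDTA overnight in the cold before the epidermis was lifted, so a sheet can carry hair follicles and adhering dermal cells. Zfp750, a zinc finger gene of the differentiating epidermis, was at 119, 111, 81.6 and 93.7 FPKM in wild types 1 to 4 and at 2.68, 2.31, 2.29 and 1.53 in knockouts 1 to 4, which fits the labels in all 8 libraries. Sample titles also hold a code, 11, 14 or 44, whose meaning is not given: code 11 covers knockout 1 and wild type 4, code 14 knockout 2 and wild type 3, and code 44 the other libraries.

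Collagens are trimers of chains wound into a triple helix. Fibrillar collagens such as types I, III and V form the fibrils of the dermis and are made mostly by fibroblasts, type VI forms beaded filaments around cells, and types IV and XVIII are laid down in the sheet-like basement membrane under the epidermis. Basal keratinocytes contribute chains to that sheet themselves, among them those encoded by Col4a5 and Col4a6, while collagen XVIII carries heparan sulfate chains and releases endostatin from its end.

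Across the collagens the knockout epidermis had more RNA of 3 basement membrane genes, Col18a1, Col4a5 and Col4a6. Of the 18 tested members these 3 rose, none fell and 15 did not pass limma's test (threshold: adjusted p of 0.05). Among all 11395 genes tested, 6.72% rose and 8.94% fell. No member fell at an unadjusted p under 0.05 either. The same 3 of 18 tested members had all 4 knockout libraries above all 4 wild types, against 8.78% of all genes tested. The log2 difference, knockout minus wild type on the log2(FPKM + 1) scale, was above 0 in all 18 members with a median of 0.62, while it was above 0 in 5797 of 11395 genes overall with a median of 0.0072. The shared sign depended on single libraries: without knockout 2, 14 members were above 0 and 4 below with a median of 0.15, and without wild type 1, 15 were above and 4 below with a median of 0.36. Without knockout 1, 2 members were below 0, and without knockout 3 or wild type 2, 1. Without knockout 4, the median was 0.94. Of the members tested, 2 of 21 were below 0 when libraries were scaled to equal sums, 5 of 34 with no filter, 1 of 18 in code 44 alone and 1 of 19 with codes 11 and 14 alone. With the level of Xist, transcribed from the silenced X chromosome, as a covariate, 9 members were above 0 and 9 below, with a median of 0.03.

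**Figure D1:**
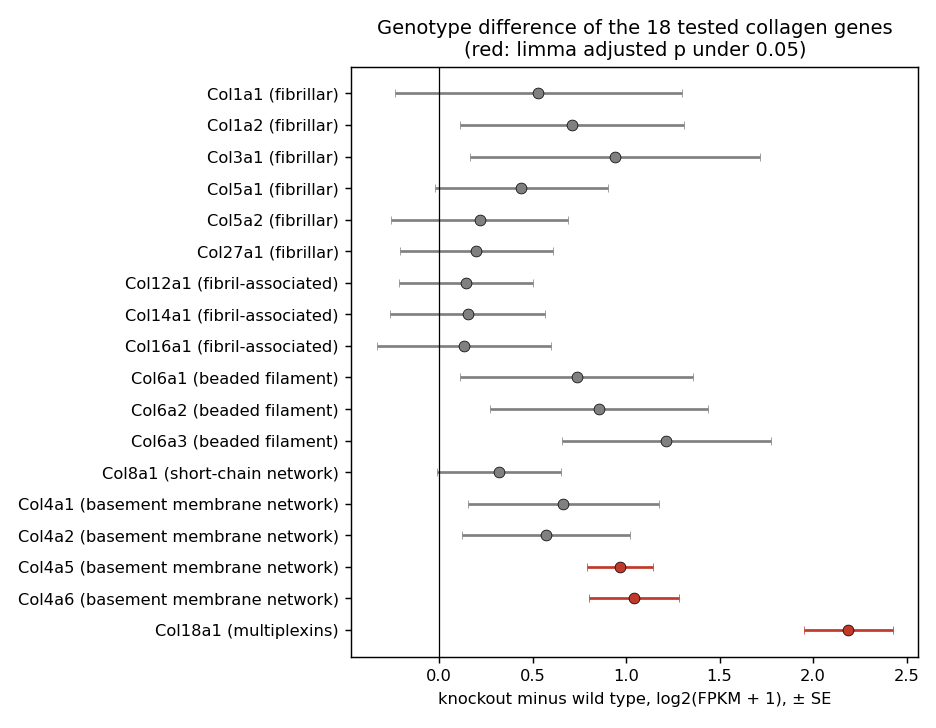
Log2 difference (knockout minus wild type, log2(FPKM + 1), with its SE) of the 18 tested collagen genes, ordered by class from fibrillar at the top to Col18a1 at the bottom. Red points passed limma's test. Col18a1, Col4a5 and Col4a6 stand out by short error bars as much as by size, whereas Col6a3 had a difference of 1.22 with an SE of 0.56 and did not pass.

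Collagen XVIII showed the largest difference of the members tested. Col18a1 (chr10:77052178-77166548, minus strand, GRCm38, 41 exons in its longest transcript) had 51.8, 51.7, 59.7 and 60.2 FPKM in knockouts 1 to 4, and 7.63, 8.42, 16.9 and 15.5 in wild types 1 to 4. The groups lay far apart. The mean was 55.9 ± 4.70 against 12.1 ± 4.77 FPKM (SD, n = 4 each), 4.61 times as high, with a log2 difference of 2.19 ± 0.24 (SE, limma adjusted p = 3.03e-04). It was the most abundant member over the 8 libraries, and in the knockouts it took 28.8%, 14.8%, 28.5% and 45.1% of the summed FPKM of all 34 members, against 15.1%, 10.4%, 13.6% and 11.2% in the wild types.

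Wild types 1 and 2, both of code 44, had Col18a1 levels below those of wild types 3 and 4, and the knockouts of code 44 had the highest levels. The ratio of means was accordingly 3.35 in code 11, 3.05 in code 14 and 7.46 in code 44, above 1 in each. The log2 difference was 1.62 in codes 11 and 14 together and 2.76 in code 44. The interaction of genotype and code was 1.14 ± 0.18 on the log2 scale (limma unadjusted p = 2.57e-04), but it did not pass after adjustment over all genes (limma adjusted p = 0.144). No member passed that interaction test, and 0% of all 11395 genes did, although 1771 of them (15.5%) had an unadjusted p under 0.05. On the opposite strand an exon of Col18a1 is overlapped by Slc19a1, a folate carrier gene, and whether the counting used strand is not given. Slc19a1 itself stood at 3.48 to 4.15 FPKM in the knockouts and 2.12 to 3.70 in the wild types (log2 difference 0.37 ± 0.17, limma adjusted p = 0.191), far below Col18a1.

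RefSeq (GRCm38.p6) places 2 transcription starts in Col18a1, 52825 bases apart, which a value per gene cannot separate. The 250 bases before each start are shown because the gene has the largest difference, and those of Col4a6 and Col4a5 because that pair lies head to head and rose in both members. Each line runs 5′ to 3′ on the gene's own strand and ends at the base before the start. Capitals mark matches to GGGCGG or CCAAT on either strand, so that CCGCCC and ATTGG are matches on the other strand.
Col18a1 upstream start, chr10:77166531-77166780, minus strand: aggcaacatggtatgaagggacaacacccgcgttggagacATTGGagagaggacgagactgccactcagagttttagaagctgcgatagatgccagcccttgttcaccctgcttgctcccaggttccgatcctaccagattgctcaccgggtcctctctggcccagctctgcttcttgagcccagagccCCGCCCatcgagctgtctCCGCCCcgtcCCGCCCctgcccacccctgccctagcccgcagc
Col18a1 downstream start, chr10:77113706-77113955, minus strand: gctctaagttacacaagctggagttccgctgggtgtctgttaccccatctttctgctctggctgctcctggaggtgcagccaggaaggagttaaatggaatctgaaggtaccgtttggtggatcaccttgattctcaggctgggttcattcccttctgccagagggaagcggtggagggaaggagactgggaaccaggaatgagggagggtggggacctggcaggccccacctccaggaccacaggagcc
Col4a6, chrX:141474077-141474326, minus strand: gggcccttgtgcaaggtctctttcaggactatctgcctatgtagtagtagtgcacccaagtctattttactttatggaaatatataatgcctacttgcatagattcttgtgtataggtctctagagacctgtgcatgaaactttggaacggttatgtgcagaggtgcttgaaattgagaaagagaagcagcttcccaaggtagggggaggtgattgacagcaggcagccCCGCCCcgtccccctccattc
Col4a5, chrX:141475169-141475418, plus strand: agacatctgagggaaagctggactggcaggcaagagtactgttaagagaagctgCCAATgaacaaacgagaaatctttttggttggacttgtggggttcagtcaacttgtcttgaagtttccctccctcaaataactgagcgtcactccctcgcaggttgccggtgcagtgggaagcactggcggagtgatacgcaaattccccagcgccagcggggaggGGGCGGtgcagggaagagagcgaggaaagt

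The upstream Col18a1 window is 62% G and C, with GGGCGG at positions -61, -43 and -33 (first base of the match, the base before the start being -1) and CCAAT at -210. The downstream window, 57.6% G and C, holds neither. GGGCGG occurs once in the Col4a6 window, at -21, and once in the Col4a5 window, at -30, where CCAAT lies at -196. Letter matches of this kind are common: GGGCGG is found in 32.7% of 32851 RefSeq promoter windows of that length and in 17 of the 28 windows (60.7%) of the 26 members that matched by symbol, and CCAAT in 33.8% and 28.6%. The letters CCNNAGGC, reported for human ZNF750, are in 20.4% of all windows and in 7 of the 28 (25%), but in none of the 4 windows shown. TGANTCA, the AP-1 letters (6.75% of all windows, 3.57% of the members'), and TATAAA (12.4% and 10.7%) are in none of those 4 either. All 5 motifs were searched on both strands. A match says only that the letters are there.

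Of the 6 type IV collagen genes, Col4a5 and Col4a6 rose and the other tested pair, Col4a1 and Col4a2, did not pass. Col4a5 (chrX:141475385-141689234, plus strand, 53 exons) had 17.1, 15.3, 20.7 and 16.9 FPKM in knockouts 1 to 4 and 6.67, 8.17, 7.68 and 11.9 in wild types 1 to 4. Every knockout was above every wild type, and wild type 4 was the highest of its group. The means were 17.5 ± 2.29 and 8.60 ± 2.27 FPKM (SD, n = 4 each), with a log2 difference of 0.97 ± 0.17 (SE, limma adjusted p = 0.00535). The ratio was 1.44 in code 11, 2.00 in code 14 and 2.54 in code 44. Fitted on codes 11 and 14 alone, the difference was 0.70 and no longer passed (limma adjusted p = 0.0775).

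Col4a6 (chrX:141165403-141474076, minus strand, 45 exons) is transcribed away from Col4a5 from a start 1343 bases off. It stood at 10.2, 8.67, 10.5 and 7.98 FPKM in the knockouts and 2.33, 3.34, 4.59 and 6.63 in the wild types. The groups did not overlap here either, and the order of the wild types, 1 and 2 below 3 and 4, was that of most other members. The mean rose from 4.22 ± 1.85 to 9.32 ± 1.19 FPKM (SD, n = 4 each), with a log2 difference of 1.04 ± 0.24 (SE, limma adjusted p = 0.0176). That call was lost without knockout 3 (limma adjusted p = 0.0541), without wild type 2 (0.0549), with codes 11 and 14 alone (0.0701) and with Xist as a covariate (0.0992), while the log2 difference stayed between 0.67 and 1.42 over all alternatives. Within a library there were 0.472 to 0.594 Col4a6 per Col4a5 in the knockouts and 0.348 to 0.598 in the wild types (two-sided exact permutation p = 0.400).

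Both genes lie on the X chromosome, and Xist was unevenly spread: 126, 84.6, 150.4 and 1.84 FPKM in the knockouts against 0.0223, 0.00870, 118 and 0.00825 in the wild types. Wild type 3, the wild type with high Xist, had Col4a5 at 7.68 and Col4a6 at 4.59 FPKM, inside the range of the other wild types. Knockout 4, with less Xist than the other knockouts but more than the low wild types, had 16.9 and 7.98, above all wild types. High Xist was seen in most knockouts but only in wild type 3 among the wild types, so it was not balanced between the genotypes. The part of sex in these differences was not tested. With Xist as a covariate the Col4a5 difference was 0.997 and passed (limma adjusted p = 0.0232), and that of Col18a1, which is not X-linked, was 1.98 (0.00245).

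The other type IV chains behaved differently among libraries. Col4a1 (chr8:11198423-11312826, minus strand) and Col4a2 (chr8:11312805-11449287, plus strand) encode the chains found in nearly all basement membranes, and their RefSeq starts lie 21 bases apart. Col4a1 had 29.0, 35.2, 23.3 and 7.23 FPKM in knockouts 1 to 4 and 6.23, 8.97, 18.4 and 23.6 in wild types 1 to 4. Knockout 4 fell among the lowest wild types, so the groups overlapped and the log2 difference of 0.66 ± 0.51 did not pass (limma adjusted p = 0.443). Col4a2 followed it closely, with 13.8, 14.5, 10.9 and 3.37 against 3.06, 4.54, 8.52 and 10.5 FPKM (0.57 ± 0.45, limma adjusted p = 0.457). The ratio of Col4a2 to Col4a1 stayed between 0.411 and 0.506 in all 8 libraries, although the level of Col4a1 varied 5.65 times (two-sided exact permutation p = 0.429). Col4a3 and Col4a4, the pair known from kidney, stayed at or below 0.0778 and 0.209 FPKM.

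**Figure D2:**
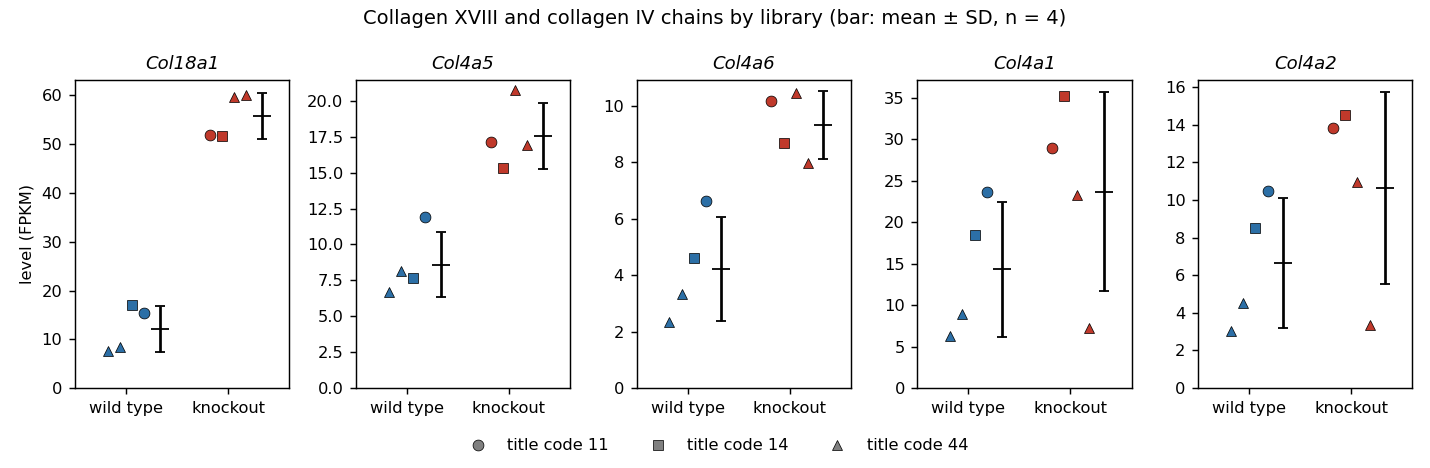
FPKM of Col18a1, Col4a5, Col4a6, Col4a1 and Col4a2 in each library, on axes that start at 0, with the mean and SD (n = 4) beside each group and marker shapes for the title code. The knockouts lie above all wild types in the first 3 panels, while knockout 4 (the lowest red triangle) drops to 7.23 and 3.37 FPKM in the panels of Col4a1 and Col4a2.

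No fibrillar collagen passed the test, and their SEs were wide. Col1a1, which encodes the main chain of type I collagen, stood at 0.667, 29.5, 7.49 and 3.92 FPKM in the knockouts and at 1.41, 7.58, 4.73 and 3.10 in the wild types. Knockout 1 was the lowest library of all and knockout 2 the highest, 44.2 times apart. The log2 difference was 0.53 ± 0.77 (limma adjusted p = 0.703), and it was -0.19 without knockout 2. Col1a2, the partner chain, had 3.65, 32.2, 8.10 and 4.05 against 1.79, 7.32, 5.44 and 5.61 FPKM (0.71 ± 0.60, limma adjusted p = 0.488). Col3a1, the type III chain abundant in newborn skin, had 1.91, 59.9, 12.6 and 7.68 against 2.36, 7.48, 8.15 and 4.92 FPKM (0.94 ± 0.78, limma adjusted p = 0.478). In these 3 genes knockout 2 stood well above the rest, and without it the differences of Col1a2 and Col3a1 were 0.09 and 0.16.

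Code by code, the type I and III ratios went in opposite directions. Knockout 1 over wild type 4 gave 0.215 for Col1a1, 0.652 for Col1a2 and 0.389 for Col3a1. Knockout 2 over wild type 3 gave 6.23, 5.92 and 7.35, and code 44 gave 1.27, 1.33 and 2.06. Summed over the 3 genes, the level was 6.23, 122, 28.2 and 15.6 FPKM in the knockouts and 5.56, 22.4, 18.3 and 13.6 in the wild types, so that knockouts 1 and 4 were within the wild-type range.

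Type V collagen, which is built into type I fibrils and limits their width, had its highest level in knockout 2 and its lowest in knockout 4. Col5a1 had 6.01, 10.8, 5.40 and 1.44 FPKM in the knockouts and 1.78, 2.61, 4.20 and 6.30 in the wild types (log2 difference 0.44 ± 0.46, limma adjusted p = 0.585). Col5a2 had 6.56, 10.8, 5.58 and 1.61 against 2.10, 3.07, 6.84 and 7.43 FPKM (0.22 ± 0.47, limma adjusted p = 0.807). Knockouts 1 and 3 lay within the wild-type range for both. The ratio of Col5a2 to Col5a1 was 0.995 to 1.12 in the knockouts and 1.18 to 1.63 in the wild types, with no overlap and a log2 difference of -0.27 (two-sided exact permutation p = 0.0286, the smallest that 70 assignments allow). Adjusted over the 8 chain ratios tested it was 0.229, the lowest that a single ratio at that limit can reach, so that this design could not pass a lone ratio. Col27a1, a fibrillar collagen of cartilage and epithelia, ranged from 0.776 FPKM in knockout 4 to 5.80 in knockout 1 (0.20 ± 0.41, limma adjusted p = 0.795).

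The type VI chains resembled types I and III in their spread. Col6a1 had 0.800, 14.3, 3.70 and 1.85 FPKM in the knockouts and 0.841, 0.681, 4.44 and 1.85 in the wild types (log2 difference 0.74 ± 0.62, limma adjusted p = 0.489). Col6a2 had 0.633, 12.9, 3.71 and 1.65 against 0.691, 0.722, 2.80 and 1.40 FPKM (0.85 ± 0.58, limma adjusted p = 0.387). Knockout 2 was again the highest library and knockout 1 among the lowest. Col6a3, the large chain that joins the other two in the trimer, had 0.874, 14.6, 4.77 and 3.15 against 0.553, 0.779, 2.40 and 1.57 FPKM, a log2 difference of 1.22 ± 0.56 (limma adjusted p = 0.188). It passed without knockout 1 (1.70, limma adjusted p = 0.0465), with the title code as a block (1.22, 0.0492) and in code 44 alone (1.56, 0.0200), and it was 0.68 without knockout 2 (0.378). In code 44 alone it met the filter through the knockouts only, both wild types being under 1 FPKM. Per Col6a1 there were 1.02 to 1.70 Col6a3 in the knockouts and 0.542 to 1.14 in the wild types (two-sided exact permutation p = 0.0857, 0.229 adjusted over the 8 ratios). Col6a6 was at or below 0.0982 FPKM.

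The 3 tested fibril-associated members had log2 differences of 0.13 to 0.15. Col12a1, which links fibrils to other matrix, had 12.8, 9.51, 12.3 and 4.67 FPKM in the knockouts and 4.95, 5.91, 12.8 and 11.9 in the wild types (log2 difference 0.14 ± 0.36, limma adjusted p = 0.831). Col16a1 had 7.05, 6.89, 6.96 and 1.47 against 1.84, 4.14, 4.85 and 9.11 FPKM (0.13 ± 0.46, limma adjusted p = 0.884). Both had their lowest knockout in knockout 4. Col14a1 ranged from 0.879 to 5.19 FPKM (0.15 ± 0.41, limma adjusted p = 0.846). Col8a1, a short-chain network collagen, ranged from 0.766 to 3.65 FPKM (0.32 ± 0.33, limma adjusted p = 0.582).

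By class, then, 1 of 1 tested multiplexin and 2 of 4 tested basement membrane network genes rose, where 6.72% of all genes tested did. The medians of these classes were 2.19 and 0.82 on the log2 scale. None of the 6 fibrillar (median 0.49), 3 beaded filament (0.85), 3 fibril-associated (0.14) and 1 short-chain (0.32) genes tested passed limma's test, and none had an unadjusted p under 0.05. Their SEs ran from 0.33 to 0.78, wider than the 0.17 to 0.24 of the 3 called genes.

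Among the 16 members under the filter, 11 never reached 1 FPKM, and the highest value was 2.97. Col23a1, a transmembrane collagen, had that value: 1.33, 2.97, 1.69 and 0.875 FPKM in the knockouts against 0.525, 0.482, 0.548 and 0.573 in the wild types. Col26a1 had 0.491, 1.76, 0.696 and 0.576 against 0.147, 0.0534, 0.192 and 0.105 FPKM. In both, every knockout was above every wild type, which held for 4.09% of the 4596 genes under the filter. With no filter, 5 of the 34 members rose, these among them (Col23a1 0.77 ± 0.21, limma adjusted p = 0.0423, and Col26a1 0.70 ± 0.18, 0.0368), where 4.87% of all 15991 genes rose. In fits on fewer libraries or other scalings where Col23a1 reached the filter, it passed in 2 of 7, and it was lost without any 1 of the wild types (limma adjusted p = 0.0760 to 0.103) and with codes 11 and 14 alone (0.0615). In the fits on fewer libraries, among them the pass without knockout 4, it met the filter through knockouts alone. No wild type reached 1 FPKM, so those fits are not used as support. Col20a1 went the other way, at 0.332 to 0.439 FPKM in the knockouts and 0.465 to 0.656 in the wild types. Col15a1, the other multiplexin, was highest in knockout 2 at 0.996 FPKM and stood at 0.0389 to 0.490 elsewhere, with overlapping groups. These low values rest on few fragments, and their counting error is unknown.

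**Figure D3:**
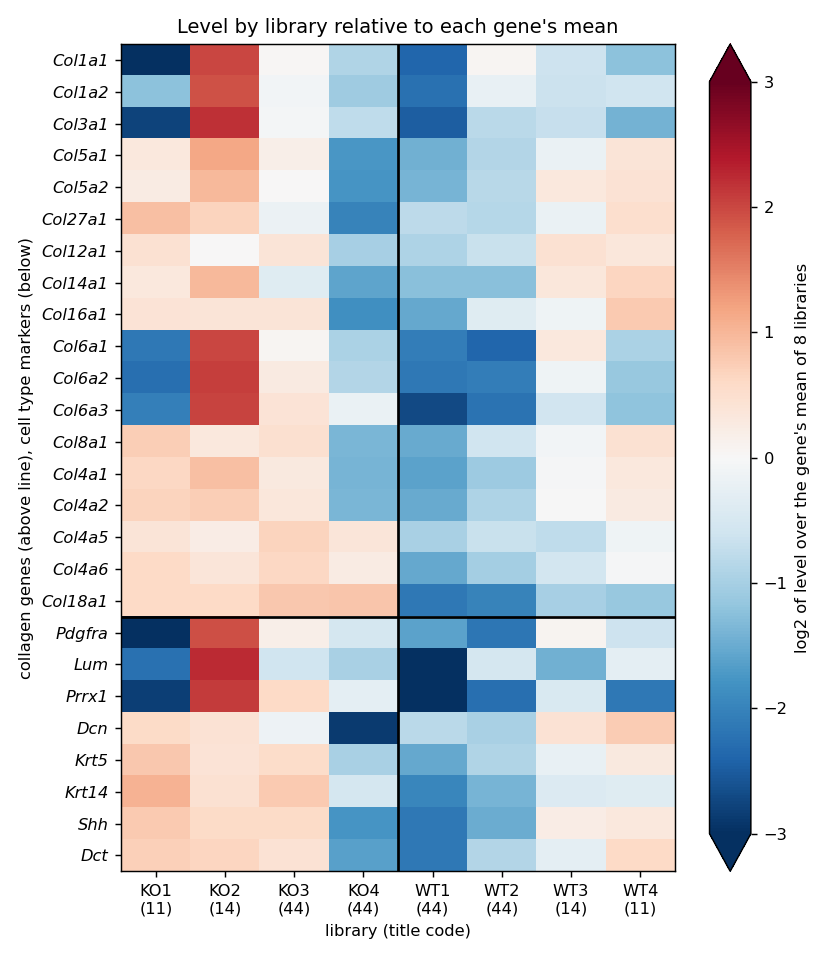
Log2 of the level in each library over the gene's mean of 8 libraries, for the 18 tested collagens (above the horizontal line) and 8 cell type markers (below it), with the title code under each library and the genotypes split by the vertical line. Types I, III and VI are darkest red in knockout 2, as are Pdgfra, Lum and Prrx1, which were under the filter. Dcn, a tested fibroblast marker, was highest in wild type 4. Col4a1, Col4a2 and types V, XII, XIV and XVI have their blue cells in knockout 4 and wild types 1 and 2, as Shh and Dct do. Col18a1, Col4a5 and Col4a6 split by genotype.

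A second pattern cut across the genotypes. Knockout 2 was the highest library in 22 of all 34 members and in 11 of the 18 tested. The lowest library was knockout 4, wild type 1 or wild type 2 in 15 of 18 tested members, and both wild types 3 and 4 were above wild types 1 and 2 in 14 of 18. The same shares over all genes are not given here, so these orders may not be particular to collagens. Knockout 4 and wild types 1 and 2 had 10637, 10745 and 10889 genes at or above 1 FPKM, the fewest, and wild type 3 had 11599, the most. The median member varied 7.08 times between its lowest and highest library. Summed over all 34 members, the level was 180, 349, 209 and 133 FPKM in the knockouts and 50.7, 80.8, 125 and 138 in the wild types, with knockout 4 below wild type 4.

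Markers of other cells also varied between libraries, not all in the same order. The sheets were epithelial by Krt5, a basal keratin, at 531 to 1803 FPKM in the knockouts and 358 to 1260 in the wild types. Of 12 fibroblast markers 10 were listed and 3 tested, and 7 of the 10 were highest in knockout 2, a share not given here for all genes. Lsp1 had a mean of 4.56 FPKM in the wild types and 0.664 in the knockouts. It met the filter through the wild types alone, the group where it was high, so its test is not used as support. Pdgfra, a receptor that defines fibroblasts, stood at 0.0628, 1.95, 0.579 and 0.355 FPKM in the knockouts and 0.170, 0.114, 0.540 and 0.336 in the wild types. Lum, a proteoglycan of dermal fibrils, had 0.223, 4.96, 0.705 and 0.539 against 0.0608, 0.732, 0.389 and 0.864 FPKM. Both put knockout 2 highest and knockout 1 low, as Col1a1, Col3a1 and the type VI genes did. The 3 tested markers, Dcn, Thy1 and Lsp1, went the other way, each highest in wild type 4 with a log2 difference below 0. Thy1 was at -0.65 ± 0.36 (limma adjusted p = 0.283) and Dcn at -0.32 ± 0.69 (0.810). The part of fibroblasts in the collagen results was not tested. In bulk RNA, fewer cells of a type and less RNA per cell cannot be told apart.

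Dcn, another fibroblast proteoglycan, followed the other pattern, with 66.1, 59.8, 40.2 and 6.11 FPKM in the knockouts and 25.2, 22.5, 59.9 and 75.2 in the wild types. It made up most of the summed level of the fibroblast list, 8.89 to 80.7 FPKM in the knockouts and 30.3 to 88.4 in the wild types, both ranges overlapping. The 6 hair follicle markers summed to 342 to 913 FPKM in the knockouts and 267 to 559 in the wild types, and the 6 melanocyte markers to 17.5 to 91.4 and 14.1 to 82.7, each with wild type 1 lowest and knockout 4 the lowest knockout. The follicle sum was mostly Krt17, a keratin of the follicle, at 293 to 814 FPKM in the knockouts and 137 to 386 in the wild types (log2 difference 1.08 ± 0.39, limma adjusted p = 0.0983). Krt79, a keratin of the upper follicle, was the called gene of that list and fell, from 129 ± 14.3 to 49.7 ± 12.0 FPKM (SD, n = 4 each; -1.38 ± 0.17, limma adjusted p = 5.90e-04). Endothelial markers were scarce, with Pecam1 at or below 0.495 FPKM and the summed list at or below 2.79. Skeletal muscle markers summed to 51.9 FPKM in wild type 3 and to at most 7.15 elsewhere. Among the knockouts Col18a1 was 60.2 FPKM in knockout 4, where fibroblast, follicle and melanocyte sums were the lowest of the group. Among the wild types it went with these sums: 1 and 2 (7.63 and 8.42 FPKM) were below 3 and 4 (16.9 and 15.5), as in each sum. The part of these cells in the Col18a1 difference was not tested. Krt14, the basal keratin that pairs with Krt5, also had its lowest knockout value in knockout 4, at 1112 against 2202 to 3330 FPKM, with 417 to 1253 in the wild types. Its own difference, 1.46 ± 0.43 (limma adjusted p = 0.0464), was lost under 10 of 18 alternatives, among them leaving out knockout 1, 2 or 3 or wild type 1 or 2 (0.0979 to 0.122) and Xist as a covariate (0.261), and its part in the basement membrane results was not tested.

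**Figure D4:**
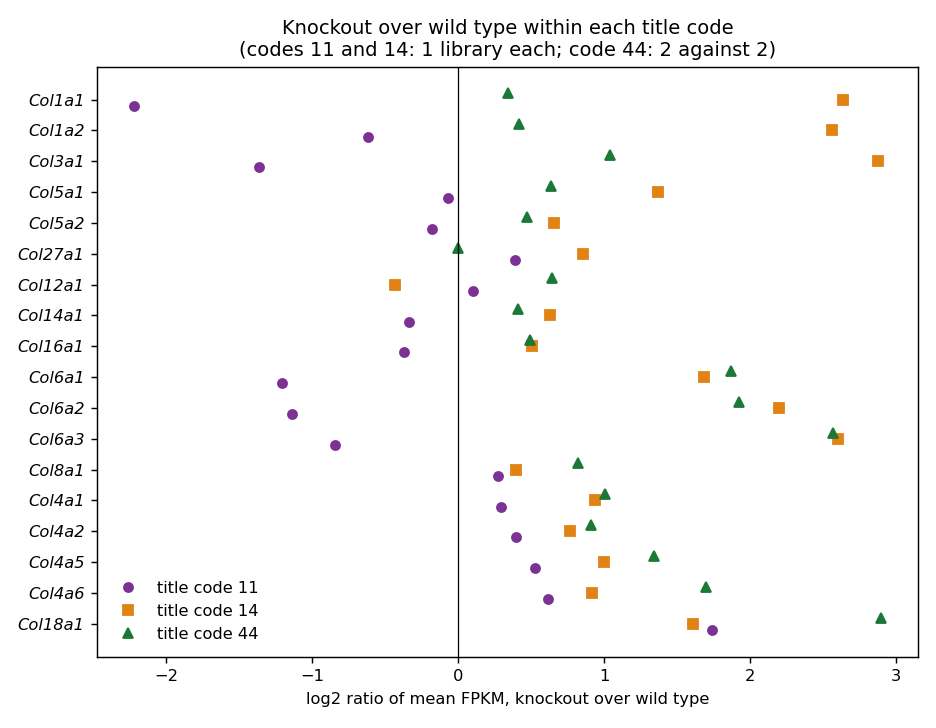
Log2 ratio of mean FPKM, knockout over wild type, within each title code (codes 11 and 14 hold 1 library of each genotype, code 44 holds 2). All 3 symbols lie right of 0 for Col18a1, Col8a1 and the 4 tested type IV genes, while types I, III and VI lie left of 0 in code 11 and right in code 14.

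Within title codes, 17 of 18 tested members were higher in the knockouts of code 44 and 17 of 18 in that of code 14, but 8 of 18 in that of code 11. Codes 11 and 14 have 1 library of each genotype, so these ratios have no replicate check. Col18a1, Col4a5, Col4a6, Col4a1, Col4a2 and Col8a1 were above 1 in all 3 codes.

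Enzymes that modify collagen chains split in both directions. Of 22 genes for folding, modification and secretion 20 were tested, 3 rose and 1 fell, with a median log2 difference of 0.07 against 0.0072 for all genes. Among all genes tested 6.72% rose and 8.94% fell. No gene list was tested as a set. P4ha1, the catalytic subunit of the prolyl 4-hydroxylase that stabilises the triple helix, stood at 12.8, 14.1, 17.1 and 19.7 FPKM in the knockouts and 0.857, 3.40, 2.78 and 6.86 in the wild types. The lowest knockout was above the highest wild type, and the log2 difference was 2.08 ± 0.37 (limma adjusted p = 0.00506). Leprel1, now called P3h2, a prolyl 3-hydroxylase that acts on type IV collagen, had 11.1, 8.97, 11.5 and 12.7 against 5.56, 3.70, 5.49 and 6.06 FPKM (0.97 ± 0.17, limma adjusted p = 0.00434). Plod3, a lysyl hydroxylase that also adds sugars to collagen, had 10.01, 9.07, 8.97 and 6.98 against 1.07, 2.23, 4.33 and 5.35 FPKM (1.32 ± 0.32, limma adjusted p = 0.0227). The groups did not overlap in either, though Plod3 lost its call without knockout 1, 2 or 3 or wild type 2 (limma adjusted p = 0.0573 to 0.0676) and with Xist as a covariate (0.132).

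Leprel4, now P3h4, part of an endoplasmic reticulum complex for lysine hydroxylation, fell, at 8.20, 8.64, 12.1 and 10.3 FPKM in the knockouts against 16.8, 22.2, 14.4 and 16.3 (-0.77 ± 0.17, limma adjusted p = 0.0136). It did not pass in code 44 alone (0.0708) or with Xist as a covariate (0.0864). Ppib and Crtap, both of the prolyl 3-hydroxylation complex for fibrillar collagen, were at -0.30 ± 0.10 and -0.40 ± 0.14 and did not pass (limma adjusted p = 0.0772 and 0.0909). Serpinh1, the collagen chaperone HSP47, had 45.7, 62.7, 36.8 and 8.94 against 10.2, 16.3, 24.5 and 42.7 FPKM (0.59 ± 0.58, limma adjusted p = 0.557). Like Col4a1 it was lowest in knockout 4 and wild type 1 and highest in knockout 2.

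Of 14 listed genes for propeptide removal and cross-linking only 4 reached the filter, and 1 rose, where 6.72% of all genes tested did. That was Tll1, a tolloid-like protease that can trim procollagen ends, at 3.22, 3.20, 4.01 and 4.67 FPKM in the knockouts and 0.576, 0.696, 1.51 and 1.86 in the wild types, a log2 difference of 1.18 ± 0.22 (limma adjusted p = 0.00681). All knockouts were above all wild types. The median of the list was 0.38.

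Of 8 tested genes for collagen breakdown and its inhibitors, 3 rose and 2 fell, with a median of 0.16. The shares over all genes tested were 6.72% and 8.94%. Pepd, the prolidase that splits the last proline dipeptides of degraded collagen, fell from 61.9, 71.3, 41.6 and 61.7 FPKM in the wild types to 21.3, 25.6, 26.4 and 30.7 in the knockouts (-1.14 ± 0.18, limma adjusted p = 0.00245). The groups were well apart. Timp2, an inhibitor of matrix metalloproteinases, fell as well (-1.12 ± 0.24, limma adjusted p = 0.0137), though not in code 44 alone (0.0977). Mrc2, an uptake receptor for collagen fragments, rose from 1.96 ± 0.855 to 4.82 ± 0.956 FPKM (SD, n = 4 each; 1.01 ± 0.22, limma adjusted p = 0.0151), though not with codes 11 and 14 alone (0.101). Among membrane-bound metalloproteinases, Mmp15 was 0.81 ± 0.19 higher (limma adjusted p = 0.0191, lost without knockout 2, knockout 3 or wild type 2 at 0.0514 to 0.0583, in code 44 alone at 0.0547, with codes 11 and 14 alone at 0.0758 and with Xist as a covariate at 0.108). Mmp14 was 1.31 ± 0.36 higher (limma adjusted p = 0.0377), with overlapping groups and the call lost without knockout 1, 2 or 3 or wild type 1 or 2 (0.0853 to 0.104), with no filter (0.0541) and with Xist as a covariate (0.213).

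Collagen receptors on cells differed by gene. Of 4 tested, 2 rose and 1 fell, with a median of 0.55, where 6.72% of all genes tested rose and 8.94% fell. Itga2, the alpha subunit of a collagen-binding integrin of basal keratinocytes, had 7.59, 6.92, 7.70 and 8.23 FPKM in the knockouts and 0.693, 0.893, 2.05 and 2.31 in the wild types, a log2 difference of 1.85 ± 0.23 (limma adjusted p = 6.36e-04). As with Col18a1, wild types 1 and 2 were the lowest and the groups lay far apart. Cd44, a hyaluronan receptor that also binds collagen, rose from 48.9 ± 7.77 to 81.6 ± 11.1 FPKM (SD, n = 4 each; 0.73 ± 0.15, limma adjusted p = 0.00880), a call lost with codes 11 and 14 alone (0.0929) and with Xist as a covariate (0.0594). Ddr2, a receptor tyrosine kinase for fibrillar collagen, fell, at 0.162, 1.19, 0.278 and 0.167 FPKM in the knockouts against 6.92, 2.28, 9.42 and 1.75 (-1.90 ± 0.43, limma adjusted p = 0.0162), a call lost without wild type 1 (0.0517) and with codes 11 and 14 alone (0.103). Its relative Ddr1 was 0.38 ± 0.13 higher and did not pass (limma adjusted p = 0.0876).

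**Figure D5:**
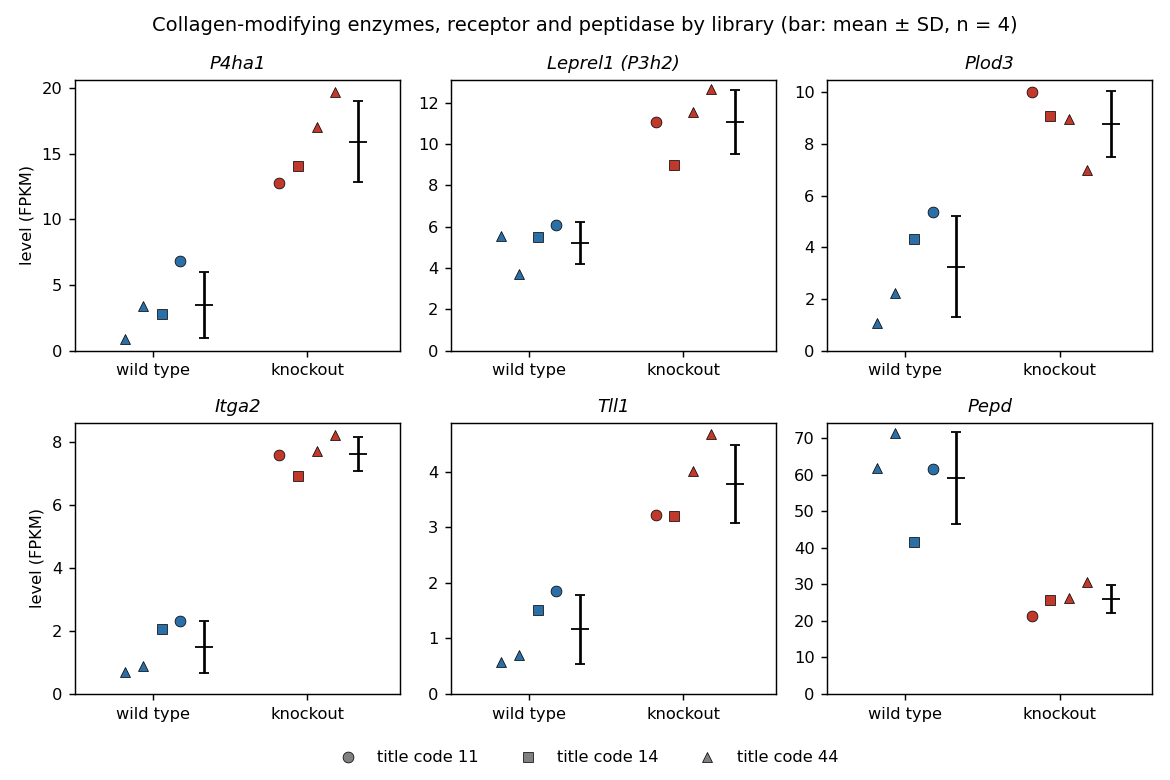
FPKM by library of P4ha1, Leprel1 (P3h2), Plod3, Itga2, Tll1 and Pepd, on axes that start at 0, with the mean and SD (n = 4) beside each group and marker shapes for the title code. The genotypes separate in all 6 panels, with Pepd the other way round, at 21.3 to 30.7 FPKM in the knockouts and 41.6 to 71.3 in the wild types.

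The other proteins of the basement membrane did not pass as single genes. Of 12 tested laminins, nidogens, proteoglycans and Fraser complex genes none was called by limma, where 6.72% of all genes tested rose and 8.94% fell. In this list 5 had an unadjusted p under 0.05, and the share of all genes under it is not given here. The difference was above 0 in 11, with a median of 0.69, against 5797 of all 11395 genes and a median of 0.0072. Lama5, one of the laminin chains of the epidermal basement membrane, had 44.3, 42.0, 42.3 and 22.3 FPKM in the knockouts and 8.93, 11.6, 24.2 and 27.8 in the wild types (log2 difference 1.11 ± 0.36, limma adjusted p = 0.0683). Agrn, like collagen XVIII a heparan sulfate proteoglycan, had 61.3, 53.7, 62.2 and 36.1 against 12.7, 17.1, 33.3 and 42.8 FPKM (1.11 ± 0.35, limma adjusted p = 0.0641). In both, knockout 4 fell inside the wild-type range and 3 knockouts were above it, where Col18a1 in knockout 4 was not low. Of 13 tested dermal matrix genes other than collagens none was called, 1 had an unadjusted p under 0.05 (Ecm1, a matrix glycoprotein, -0.76 ± 0.31, limma adjusted p = 0.136), and the median was 0.25.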

How the data were processed

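Total RNA of 8 epidermis samples was depleted of ribosomal RNA and sequenced as stranded paired-end libraries, per the labels. The authors deposited 1 table of FPKM values. The submitters' processing notes name the build mm10. Aligner, counter, annotation and use of strand were not given in the sources used here. Every listed gene has a value in knockout 1, so genes unseen there are missed. Missing values (2029 genes, median highest value 0.167 FPKM) were taken as 0, and 4 genes listed at 0 in some libraries and above 100 FPKM in others were left out of fits. Summed FPKM was 483416 to 577300 per library. Depth is unknown, so no counting intervals are given.

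Genes at 1 FPKM in at least 4 of 8 libraries (3 of 7, 2 of 4) were compared as log2(FPKM + 1), which understates changes of low genes. The comparison used limma (version 3.58.1, run in R 4.3.3, trended variance, Benjamini-Hochberg adjustment). This fit was tested on simulated data with noise drawn separately for each gene and library. Such data lack orders of libraries shared between genes, so the simulation does not cover them. Chain ratios (pseudocount 0.1) used two-sided exact permutation tests. Nothing says which samples come from separate litters, and p-values measure the spread between these samples.

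The members and gene lists were chosen with earlier results of these data known. Named genes were Zfp750, called members, the 15 most abundant members, type IV and VI genes, up to 4 tested genes of smallest p per list, called list genes and defining markers. Slc19a1, Serpinh1, Col8a1, Col14a1, Col15a1, Col20a1, Xist and, in a figure, Prrx1, Shh and Dct were chosen after their values were seen. Coordinates and exons are from GENCODE vM21 (GRCm38, the build of mm10). Of 22 folding genes 6 were found by older symbols. Alternatives were pseudocount, filter, scaling, array weights, each library left out, title code as a block, codes apart, and, added after seeing the data, Xist as a covariate.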

Additional observations from a re-analysis of the deposited data

Results flagged for a closer look

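In 7 of 68 tests (34 members in each genotype) 1 library stood apart from the other 3 of its group. The cutoff is meant for about 1 in 20 independent tests. Members measured in the same 8 libraries are not independent, so the 7 cannot be set against that rate. Knockout 2 was the high one for Col1a2 (32.2 FPKM, the next knockout at 8.10), Col26a1 (1.76 and 0.696), Col4a4 (0.209 and 0.145), Col11a1 (0.186 and 0.0492) and Col6a6 (0.0982 and 0.0189). Knockout 4 was the low one for Col16a1, at 1.47 FPKM with the next at 6.89. Wild type 4 was the high one for Col2a1, the cartilage fibrillar collagen, at 1.16 FPKM with the next at 0.0509.

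Col10a1, a short-chain collagen known from cartilage, went in different directions in the title codes. The knockouts of code 44 had 1.18 and 0.858 FPKM (mean 1.02) against 0.546 and 0.743 in its wild types, while those of codes 11 and 14 had 0.343 and 0.234 against 0.515 and 0.735. With no filter on low values the interaction was 0.63 ± 0.18 on the log2 scale and did not pass after adjustment (limma adjusted p = 0.244).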

How the results depend on the processing

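Col18a1 passed under all 18 alternatives (log2 1.62 to 2.76, limma adjusted p = 3.69e-05 to 0.00245), Col4a5 under all but codes 11 and 14 alone, and Col4a6 under all but the 4 named above. The members called numbered 5 with no filter (adding Col23a1 and Col26a1), 7 with array weights (adding Col4a1, Col4a2, Col5a1 and Col6a3), 1 with codes 11 and 14 alone, 2 with Xist as a covariate, 4 with the title code as a block and 2 to 4 with 1 library left out. The causes were not tested. Over all genes, 1785 were called, 766 higher and 1019 lower. Leaving out 1 library gave 1123 (without wild type 1) to 2326 (without knockout 4), 474 to 1083 of them higher and 649 to 1243 lower. Array weights gave 3669 (1942 higher, 1727 lower), Xist as a covariate 1141 (465 and 676), and code 44 alone 575 lower. The interaction of genotype and code was called for 0 genes, and for 2 with no filter. The title code as a block, which matches knockouts with wild types of the same code, gave 2261 genes. The replicate numbers in the titles match fewer than 2 pairs and were not used as a block. Knockouts 1 and 2, of codes 11 and 14, both carry the number 1 in their titles, so the numbers used here are not those of the titles. Low members are limited by the unknown depth.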
